A study of Arabidopsis thaliana with 7 samples.

Results

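The arf6/arf6 ARF8/arf8 flowers of Arabidopsis thaliana were compared with wild-type flowers of the accession Columbia on single-colour Affymetrix arrays. The arrays were taken by their titles, and 4 of the 7 arrays in the series were used for the comparison itself: arf6/arf6 ARF8/arf8 untreated and sprayed with indole-3-acetic acid (IAA, the main natural auxin), and Columbia untreated and sprayed with IAA. Another pair, arf6 arf8 untreated and sprayed with IAA, entered the same model and served as a second mutant genotype, and a mock-sprayed Columbia array stood outside the model. The titles give the mutant as homozygous for arf6 and heterozygous for arf8, while the series text writes ARF6/arf6 arf8/arf8, so which of the genes kept a wild-type copy cannot be told from the labels. The IAA dose is likewise 10 µM in the sample labels and 10 mM in the series text.

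All plants were grown for 6 weeks in long days, and flowers of stages 1 to 14 were collected together. The IAA spray also held 1% methanol and 0.05% Tween-20, the mock spray held only these, and harvest followed after 30 minutes. Untreated plants received no spray in either genotype. Each group holds 1 array, the number of plants behind an array is not given in the sources used here, and values are therefore printed per array with no error of their own. ARF6 and ARF8 are not among the probe sets with a gene listed here, so the genotypes could not be verified on the mutated genes themselves. In whole flowers, fewer cells of a type and less RNA per cell cannot be told apart, nor can a shift in the mix of flower stages.

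Auxin response factors are transcription factors that bind auxin response elements in promoters and are held in check by Aux/IAA repressors, which are degraded when auxin is present. ARF6 and ARF8 act in partly redundant fashion in flower maturation, where they are known for stamen filament elongation, anther opening, maturation of the gynoecium and jasmonate production. Flowers of the arf6 arf8 double mutant are known to arrest as closed, infertile buds.

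Median intensity lay between 240.85 and 261.5 on the 7 arrays. The low end differed: the 10th percentile was 12.8 and 13.2 on the untreated and IAA arrays of arf6/arf6 ARF8/arf8, 9.8 and 17.9 in arf6 arf8, and 9.5, 9.8 and 26.9 on the untreated, IAA and mock arrays of Columbia. Intensities below 64.9, the 25th percentile of all values, were therefore raised to that floor. The labelled tissue was read through the few flower markers with a named probe set. The nectary gene SWEET9, the pollen genes ANX2 and AT59 and the carpel gene SPT were measured on all 7 arrays, while the floral regulator UFO and the meristem gene CLV3 lay at or below the floor on all 7.

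In the comparison of arf6/arf6 ARF8/arf8 with Columbia, paired by treatment, 422 of 12701 probe sets differed (3.32% of those tested, limma, Benjamini-Hochberg adjusted p under 0.05). Of these, 191 rose (1.5%) and 231 fell (1.82%). The falls carried 127 single-gene probe sets and the rises 111. The 12 largest falls among genes with a name or locus code included a terpene synthase locus, a peroxidase gene, the nectar transporter gene SWEET9 and the defensin-like gene LCR72. The 12 largest rises included AT3G53980, the expansin-like gene EXLB1 and a dehydrin gene. The fitted fold had a median of 1.91 for the rises and 2.03 for the falls, and at least 4-fold was reached by 2 rises and 11 falls. Without any model, 43 probe sets were at least 2-fold higher in both pairs (0.339%) and 86 at least 2-fold lower in both (0.677%).

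**Figure D1:**
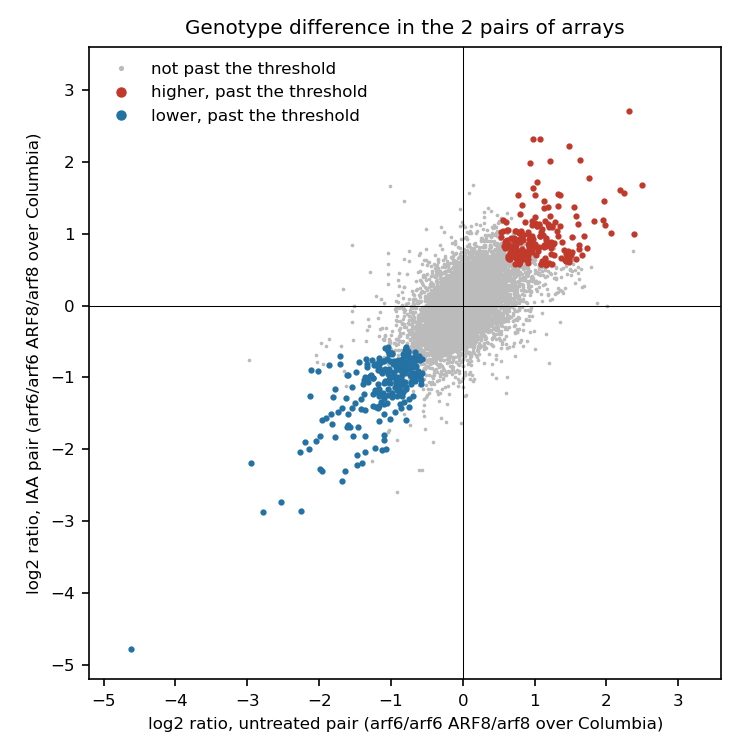
Log2 ratio of arf6/arf6 ARF8/arf8 over Columbia for each probe set tested, in untreated flowers on one axis and in IAA-sprayed flowers on the other, with the 191 rises and 231 falls past the limma threshold coloured. The called probe sets lie in the quadrants where both pairs move the same way, and the falls reach farther from 0 than the rises.

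Because no group has a repeat array, these p-values rest on how well genotype differences in untreated flowers were repeated in sprayed flowers. That spread was pooled over arf6/arf6 ARF8/arf8, arf6 arf8 and Columbia, and moderated by a prior shared across probe sets. The p-values also assume that genotype and spray effects add. Both arf6/arf6 ARF8/arf8 arrays lay above both Columbia arrays for 185 of the 191 rises (29.4% of all probe sets tested) and below both for 223 of the 231 falls (22.9%). The same arrays made the calls, so this separation largely follows from the selection and is a description only. The count rested on single arrays: it was 156 without the untreated array and 227 without the IAA array of arf6/arf6 ARF8/arf8, 226 without the untreated array and 221 without the IAA array of arf6 arf8, and 432 and 454 without the untreated and the IAA array of Columbia. With no filter on dim probe sets limma called 1 probe set, which was not among the 422 calls. An intensity trend gave 839 calls, 372 of them among the 422, and no treatment term gave 94. The 4 arrays of the comparison alone gave 316 calls, 275 of them among the 422.

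The mock-sprayed Columbia array entered neither the fit nor the choice of genes among the probe sets tested. Its values did count in the percentiles that set the floor and the filter on dim probe sets. It read below both arf6/arf6 ARF8/arf8 arrays for 183 of the 191 rises (95.8%, against 42.3% of all probe sets tested) and above both for 217 of the 231 falls (93.9%, against 34.5%). The arf6/arf6 ARF8/arf8 arrays in this count are those that made the calls. The median log2 difference of the rises was 0.98 in untreated and 0.88 in IAA-sprayed flowers, and that of the falls was −1.04 untreated and −1.01 with IAA.

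The largest fall among single-gene probe sets was AT3G25810, which is on the list of terpene synthase loci, enzymes that make the volatile terpenes of flowers. It read 50.4 in untreated and 37.5 in IAA-sprayed arf6/arf6 ARF8/arf8 flowers, against 444.7 and 474.0 in Columbia. Both mutant arrays were below the floor and both Columbia arrays far above it, so the locus was at least 7.07-fold lower (limma, adjusted p = 0.000604). The mock Columbia array read 402.7. The other terpene synthase locus tested, AT5G44630, read 1102.9 and 864.0 in arf6/arf6 ARF8/arf8, against 2292.6 and 2217.9 in Columbia, and fell by 1.21 ± 0.15 on the log2 scale (SE, limma, adjusted p = 0.0138). Of the 19 terpene synthase loci with a named probe set these were the only ones bright enough to test. Both fell, beside 1.82% of all probe sets tested. AT3G25810 was bright enough through its Columbia arrays alone, so it could only be called as a fall, and the count is a description.

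SWEET9, the sucrose exporter that nectaries need to secrete nectar, read 518.9 and 409.6 in untreated and IAA-sprayed arf6/arf6 ARF8/arf8 flowers, against 1781.9 and 1460.6 in Columbia. It was 3.50-fold lower (log2 −1.81 ± 0.15 SE, limma, adjusted p = 0.00608), and the mock Columbia array, at 1627.1, lay between the other Columbia arrays. In arf6 arf8 the gene read 82.6 and 83.5, near the floor. SWEET9 is also the only nectary marker with a named probe set, so a smaller share of nectary tissue and a lower level within it cannot be told apart here.

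LCR72, a small cysteine-rich protein of the plant defensin family, read 664.5 and 536.4 in arf6/arf6 ARF8/arf8, against 1836.1 and 2275.2 in Columbia, and was 3.42-fold lower (log2 −1.78 ± 0.17 SE, limma, adjusted p = 0.00701). AT5G64120, the peroxidase gene PRX71, read 70.6 and 92.4 in arf6/arf6 ARF8/arf8, against 546.9 and 422.6 in Columbia. It was 5.95-fold lower (log2 −2.57 ± 0.38 SE, limma, adjusted p = 0.0196), with a log2 difference of −1.91 without the untreated array and −3.24 without the IAA array of Columbia. For both genes the mutant arrays lay below the Columbia arrays, as they did for 22.9% of all probe sets tested. AT1G43590, annotated as a pseudogene, read 64.9 and 54.2 in arf6/arf6 ARF8/arf8, at or below the floor, against 375.7 and 431.8 in Columbia, and was at least 6.21-fold lower (limma, adjusted p = 0.00409).

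The remaining named falls are known here by locus code only. AT3G54240 was 5.86-fold lower, AT5G47350 4.44-fold, AT1G47400 4.38-fold, AT3G50900 4.12-fold, AT1G70270 3.92-fold, AT1G06830 3.72-fold and AT3G17060 3.33-fold. For AT3G17060 the intensities were 756.3 and 870.5 in arf6/arf6 ARF8/arf8, against 2668.1 and 2733.4 in Columbia, a gap larger than the spread between treatments in either genotype. AT3G50900 read 47.3 and 100.8 in arf6/arf6 ARF8/arf8, against 296.4 and 374.4 in Columbia, but its mock Columbia array, at 102.4, lay beside the IAA array of the mutant. Over the 12 named falls the limma adjusted p lay between 0.000604 and 0.0196. Except for SWEET9, LCR72 and AT3G17060, these genes were bright enough to test through their Columbia arrays alone. They could thus only be called as falls, and their direction was set by that filter. When the floor was lowered to the 10th percentile, AT3G54240 no longer passed (limma, adjusted p = 0.0866).

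The largest fall of all was on a probe set with no gene listed, 256311_at, which was singled out after its values were seen. It read 82.3 and 73.5 in untreated and IAA-sprayed arf6/arf6 ARF8/arf8 flowers, 31.4 and 75.8 in arf6 arf8, and 2025.9 and 2014.3 in Columbia, with 1854.5 on the mock Columbia array. The fitted fall was 25.97-fold in arf6/arf6 ARF8/arf8 (log2 −4.70 ± 0.15 SE, limma, adjusted p = 8.35e-05). In arf6 arf8 the fitted log2 difference from Columbia was −4.85, and the mutants differed from each other by 0.15 (limma, adjusted p = 0.693). All 4 mutant arrays lay near the floor.

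Among the rises, AT3G53980, known here by its locus code, had the highest fold. It read 854.2 and 942.0 in arf6/arf6 ARF8/arf8, against 171.7 and 144.2 in Columbia, and was 5.70-fold higher (log2 2.51 ± 0.15 SE, limma, adjusted p = 0.00236). EXLB1, an expansin-like protein of the plant cell wall, read 235.4 and 325.5 in arf6/arf6 ARF8/arf8, against 84.8 and 70.1 in Columbia, and was 3.59-fold higher (log2 1.84 ± 0.19 SE, limma, adjusted p = 0.00789). The mock Columbia array read 211.9 for EXLB1, close to the untreated mutant array. The dehydrin gene LEA, one of a family of proteins that accumulate in drying tissue, read 836.8 and 842.8 in arf6/arf6 ARF8/arf8, against 213.7 and 308.3 in Columbia, and was 3.27-fold higher (limma, adjusted p = 0.00995).

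**Figure D2:**
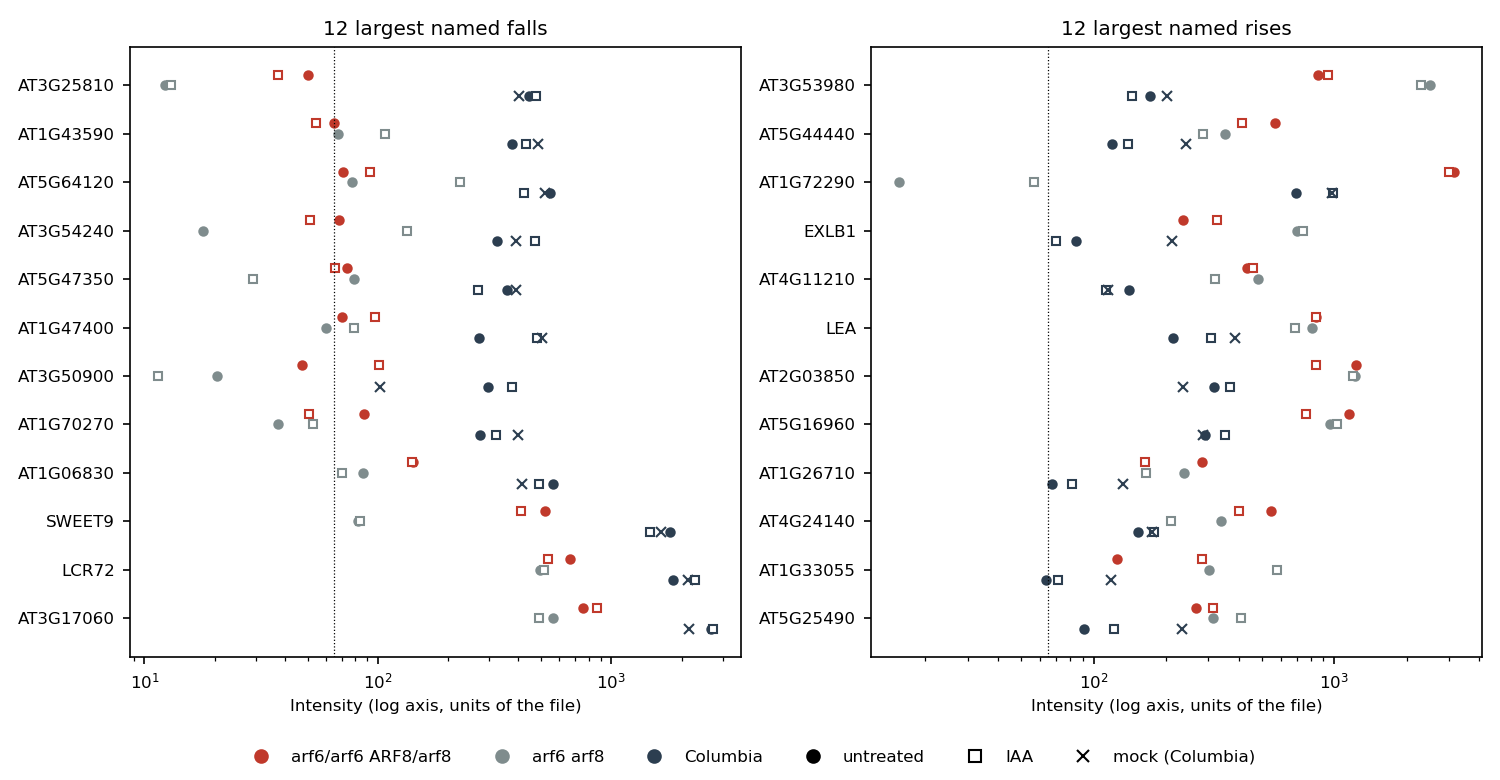
Intensity of the 12 named falls and the 12 named rises on every array (log axis), with arf6/arf6 ARF8/arf8, arf6 arf8 and Columbia arrays as separate symbols and the mock Columbia array shown beside the others. For each gene the arf6/arf6 ARF8/arf8 arrays lie on one side of the untreated and IAA Columbia arrays. These arrays also served to choose the genes. AT1G72290 is far lower in arf6 arf8 than in the other genotypes.

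AT1G72290 was the only one of the 12 named rises with a fitted value below Columbia in arf6 arf8. It read 3148.3 and 2990.3 in arf6/arf6 ARF8/arf8, 15.5 and 56.6 in arf6 arf8, and 690.1 and 984.0 in Columbia, with 977.5 on the mock array. It was 3.72-fold higher in arf6/arf6 ARF8/arf8 than in Columbia (log2 1.90 ± 0.18 SE, limma, adjusted p = 0.00608), while both arf6 arf8 arrays were below the floor. It was at least 47.3-fold higher in arf6/arf6 ARF8/arf8 than in arf6 arf8, a log2 difference of at least 5.56 (limma, adjusted p = 4.3e-05). When the floor was lowered to the 10th percentile, the rise over Columbia no longer passed (limma, adjusted p = 0.0625).

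The other named rises were AT5G44440 at 3.75-fold, AT4G11210 at 3.55-fold, AT2G03850 at 2.97-fold, AT5G16960 at 2.93-fold, AT1G26710 at 2.91-fold, AT4G24140 at 2.83-fold, AT1G33055 at 2.76-fold and AT5G25490 at 2.75-fold. The mock Columbia array read 233.3 for AT5G25490 and 117.8 for AT1G33055. That is close to the lower arf6/arf6 ARF8/arf8 array of each, 266.0 and 124.6, and above the other Columbia arrays, 91.0 and 121.6 for AT5G25490 and 63.4 and 71.0 for AT1G33055. These rises are known here by locus code only, and over the 12 named rises the limma adjusted p lay between 0.00236 and 0.0266. Of the 12, LEA, AT1G72290, AT2G03850 and AT5G16960 were also bright enough to test in Columbia. The rest were bright enough through mutant arrays alone, so they could only be called as rises. AT2G03850, AT5G16960, AT1G26710 and AT1G33055 no longer passed without either of the arf6 arf8 arrays, and AT1G33055 also without the IAA array of arf6/arf6 ARF8/arf8 (limma, adjusted p from 0.0503 to 0.0746). When the floor was raised to the 40th percentile, AT1G26710 and AT1G33055 had log2 differences of 0.45 and 0.42 and did not pass (limma, adjusted p = 0.233 and 0.326).

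Gene lists of the flower, auxin and cell wall were described by their counts, beside a median log2 difference of 0.02 over all 12701 probe sets tested. Of the 9 expansins tested, wall-loosening proteins of growing cells, 3 fell (1.82% of all probe sets tested did) and 1 rose (1.5%), and the list's median was −0.54. EXPA8 read 793.6 and 729.9 in arf6/arf6 ARF8/arf8, against 1749.3 and 1844.1 in Columbia, and fell by 1.24 ± 0.22 on the log2 scale (SE, limma, adjusted p = 0.0337). EXLA1 read 630.2 and 1163.2 in arf6/arf6 ARF8/arf8, against 1292.6 and 2249.1 in Columbia, and fell by 0.99 ± 0.15 (SE, limma, adjusted p = 0.0196). EXPB5 fell by 0.86 ± 0.15 (SE, limma, adjusted p = 0.0335), and EXLB1 is the member that rose.

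The expansins that did not pass were EXLA2, EXPB3, EXPA15, EXPA4 and EXPA9, with fitted log2 differences of −0.85, −0.54, −0.38, −0.18 and −0.08. The summed intensity of the 19 expansins on named probe sets was 7651.2 and 7387.2 in arf6/arf6 ARF8/arf8, 6730.6 and 7183.1 in arf6 arf8, and 11135.0 and 10657.1 in Columbia, with 11396.0 on the mock array. The falls rested on single arrays: EXPA8 did not pass without the untreated array of arf6/arf6 ARF8/arf8 or the IAA array of Columbia (limma, adjusted p = 0.0901 and 0.0569). EXLA1 did not pass without either arf6/arf6 ARF8/arf8 array (limma, adjusted p from 0.0666 to 0.0884). EXPB5 lost the call without any of the other arrays than the untreated one of Columbia (limma, adjusted p from 0.0609 to 0.194).

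**Figure D3:**
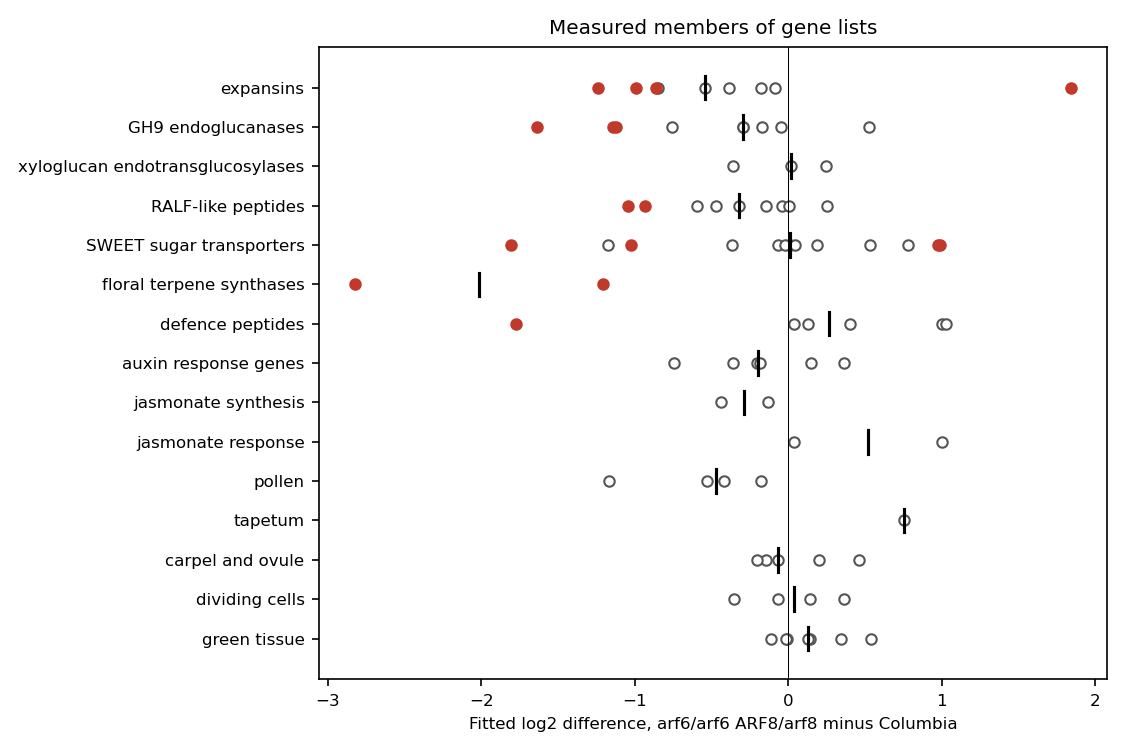
Fitted log2 difference of arf6/arf6 ARF8/arf8 from Columbia for each tested member (points, filled where past the limma threshold) of gene and marker lists, and of the GH9, RALF-like and SWEET families, with each list's median as a vertical bar. Of the 9 expansins only EXLB1 lies above 0, and the dividing-cell genes lie on both sides of 0.

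None of the 6 auxin response genes tested passed, and their median log2 difference was −0.19. GH3.3, which joins IAA to amino acids and is a known early auxin target, read 662.4 untreated and 1659.6 with IAA in arf6/arf6 ARF8/arf8, against 725.1 and 2011.6 in Columbia (log2 −0.20 ± 0.18 SE, limma, adjusted p = 0.575). HAT2, an auxin-inducible homeobox gene, read 819.0 and 1763.6 in arf6/arf6 ARF8/arf8, against 881.7 and 2111.9 in Columbia (log2 −0.18 ± 0.16 SE, limma, adjusted p = 0.557). Both read higher with IAA than untreated in each genotype. EXO, a growth-related gene known to respond to brassinosteroids, had the largest fitted difference (log2 −0.75, limma, adjusted p = 0.0809). It read 1156.0 and 3211.9 in arf6/arf6 ARF8/arf8, against 1557.6 and 6699.1 in Columbia, with 5650.4 on the mock Columbia array. EXO was thus also high after the spray without IAA, and no mutant has a mock array.

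For jasmonate, the hormone that opens anthers, only 2 synthesis genes and 2 response genes could be tested, and none passed. OPCL1, a peroxisomal enzyme of jasmonate synthesis, read 410.6 and 379.8 in arf6/arf6 ARF8/arf8, against 471.6 and 606.1 in Columbia (log2 −0.44, limma, adjusted p = 0.207). AIM1, an enzyme of fatty acid beta-oxidation, had a log2 difference of −0.13. The thionin gene THI2.1 was bright on every array, with 8506.8 and 9999.9 in arf6/arf6 ARF8/arf8, against 8514.8 and 9473.5 in Columbia. Its close relative THI2.2 read 260.4 on the untreated and 14.8 on the IAA array of arf6/arf6 ARF8/arf8, against 23.5 and 20.9 in Columbia. All of these but the first lay below the floor, so no fold is given, and the gene did not pass (limma, adjusted p = 0.251). In arf6 arf8 THI2.2 read 443.7 and 395.5.

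Of the other lists, LCR72 was the only one of 6 defence peptides that passed, as a fall (1.82% of all probe sets tested fell). No member passed among 3 xyloglucan endotransglucosylases, 2 pectin methylesterases, 6 cytochromes P450, 17 UDP-glycosyltransferases, 4 flavonoid genes, the gibberellin receptor gene GID1A (log2 0.20) or the touch and wound genes STZ and WRKY53 (log2 −0.75 and −0.46). The defensin-like gene LCR66 read 1686.3 and 1214.5 in arf6/arf6 ARF8/arf8, against 569.4 and 865.0 in Columbia, but did not pass (log2 1.03, limma, adjusted p = 0.0944). A p above the threshold does not show that levels were equal. These lists hold only genes matched by symbol or synonym. Family members known here by locus code alone can be missing from them, also among the called genes.

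Markers of single cell types were read beside these genes. All 4 pollen markers tested had a fitted value below 0 and none passed: ANX2, a receptor kinase of the pollen tube, had −1.17 ± 0.25 (SE, limma, adjusted p = 0.0552), AT59, a pollen pectate lyase, −0.53, the pollen actin ACT12 −0.41 and AGL65 −0.18. The summed intensity of the 9 pollen markers was 2072.7 and 1889.0 in arf6/arf6 ARF8/arf8, 1741.9 and 1672.9 in arf6 arf8, and 2479.0 and 3006.6 in Columbia, with 2752.6 on the mock array. Every mutant array was thus below every Columbia array in this sum, and its part in the falls described above was not tested. AMS, a regulator of the tapetum that feeds young pollen, was the only tapetum marker matched to a named probe set. It read 374.6 and 292.2 in arf6/arf6 ARF8/arf8, against 177.6 and 217.1 in Columbia, and did not pass (log2 0.75, limma, adjusted p = 0.0827). Tapetum genes known here by locus code alone were not looked at as markers.

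Markers of other tissues had medians nearer 0. The 5 carpel and ovule genes had a median log2 difference of −0.06, the 4 genes of dividing cells 0.04 and the 7 photosynthesis genes 0.13, and none of them passed. SPT, a carpel regulator, read 569.7 and 600.2 in arf6/arf6 ARF8/arf8, against 395.1 and 457.8 in Columbia (log2 0.46, limma, adjusted p = 0.125). The senescence-associated SWEET gene SAG29 differed by 0.01.

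Other families with called members were chosen after the values were seen and are given as a description. Of 14 SWEET sugar transporters tested, 2 rose and 2 fell, beside 1.5% and 1.82% of all probe sets tested. SWEET10 read 4154.5 and 4321.2 in arf6/arf6 ARF8/arf8, against 1890.8 and 2457.9 in Columbia (log2 0.97 ± 0.15 SE, limma, adjusted p = 0.0208). SWEET13 read 217.0 and 183.1 in arf6/arf6 ARF8/arf8, against 393.2 and 419.2 in Columbia (log2 −1.03 ± 0.15 SE, limma, adjusted p = 0.0194). It was bright enough to test through its Columbia arrays alone, so it could only be called as a fall. SWEET10 and SWEET13 are next to each other on chromosome 5 with 0 coding genes between them, and they changed in opposite directions. SWEET3 rose by 0.99 (limma, adjusted p = 0.0486), and SWEET14, at −1.17, did not pass (limma, adjusted p = 0.10). SWEET10 did not pass without the untreated array of arf6/arf6 ARF8/arf8 or either array of arf6 arf8 (limma, adjusted p from 0.0503 to 0.138). SWEET13 did not pass without the IAA array of arf6/arf6 ARF8/arf8 (limma, adjusted p = 0.117), and SWEET3 lost the call without any of 5 arrays, all but the IAA array of Columbia (limma, adjusted p from 0.0664 to 0.162).

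Enzymes of the cell wall were among the falls. The families and genes given here were likewise chosen after their values were seen, because they held calls. Their counts are a description. Of 9 GH9 endoglucanases tested, which cut cellulose-like glucans, 3 fell and 0 rose, beside 1.82% and 1.5% of all probe sets tested, with a median of −0.29. GH9B11 read 132.5 and 166.8 in arf6/arf6 ARF8/arf8, against 401.1 and 530.4 in Columbia, and fell by 1.63 (limma, adjusted p = 0.00608; adjusted p = 0.135 with a floor at the 10th percentile). GH9B11 was bright enough to test through its Columbia arrays alone, so it could only be called as a fall. GH9A4 fell by 1.14 and GH9C2 by 1.12 (limma, adjusted p = 0.0109 and 0.0174). CSLC04, an enzyme family member of xyloglucan backbone synthesis, fell by 1.05 (limma, adjusted p = 0.0243), and ARL, which promotes organ growth by cell expansion, fell by 0.85 (limma, adjusted p = 0.0356). Of 9 RALF-like signalling peptides, 2 fell (1.82% of all probe sets tested did): RALFL22 by 1.04 and RALFL25 by 0.93 (limma, adjusted p = 0.0142 and 0.0194). GH9C2 did not pass without the untreated array of arf6/arf6 ARF8/arf8 (limma, adjusted p = 0.062), and neither CSLC04 nor RALFL22 passed without its IAA array (limma, adjusted p = 0.123 and 0.0666). RALFL25 lost the call without 3 of the 6 arrays and ARL without 5 (limma, adjusted p from 0.0536 to 0.119 and from 0.0597 to 0.182).

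In the serine carboxypeptidase-like family, scpl31 rose by 1.45 and scpl40 fell by 1.20 among 18 tested (limma, adjusted p = 0.00766 and 0.0204). This family and those that follow were chosen after the values were seen. Over all probe sets tested, 1.5% rose and 1.82% fell. GSTU20, a glutathione transferase of the tau class, read 3918.9 and 2938.6 in arf6/arf6 ARF8/arf8, against 1706.0 and 1377.0 in Columbia, and rose by 1.15 (limma, adjusted p = 0.00995); it was the only one of 5 tau-class genes that passed. Among 10 beta-glucosidases, ATA27, first described from anthers, rose by 1.02 and BGLU28 fell by 1.53 (limma, adjusted p = 0.0462 and 0.0193). BGLU28 and scpl40 were bright enough to test through Columbia arrays alone, so they could only be called as falls. In the same way scpl31, bright enough through mutant arrays alone, could only be called as a rise. scpl40 and BGLU28 did not pass without either array of arf6 arf8, scpl40 also not without the untreated array of arf6/arf6 ARF8/arf8 (limma, adjusted p from 0.052 to 0.0762). When the floor was raised to the 40th percentile, BGLU28 and scpl40 had log2 differences of −0.51 and −0.59 and did not pass (limma, adjusted p = 0.114 and 0.0537). ATA27 lost the call without 4 of the 6 arrays (limma, adjusted p from 0.0904 to 0.242).

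Other called genes with a symbol were likewise named after their values were seen. BAN, the anthocyanidin reductase of the seed coat, read 25.2 and 71.3 in arf6/arf6 ARF8/arf8, against 283.3 and 170.4 in Columbia, and fell by 1.69 (limma, adjusted p = 0.0386), with −1.09 without the untreated array and −2.29 without the IAA array of arf6/arf6 ARF8/arf8. BAN is dim: its log2 difference was −0.48 when the floor was raised to the 40th percentile and −2.37 when it was lowered to the 10th, and neither passed (limma, adjusted p = 0.202 and 0.138). BAN was bright enough to test through its untreated Columbia array alone, so it could only be called as a fall. ASPGB1, an asparaginase, read 639.0 and 369.4 in arf6/arf6 ARF8/arf8, against 1806.5 and 941.3 in Columbia, and fell by 1.42 (limma, adjusted p = 0.00995). GTR1, a glucosinolate transporter, fell by 0.89 (limma, adjusted p = 0.0204). Among the rises, CCS, the copper chaperone of superoxide dismutase, rose by 1.05, AKINBETA1, a regulatory subunit of the SnRK1 energy-sensing kinase, by 0.90, and the cold-regulated COR15A by 0.90 (limma, adjusted p from 0.0184 to 0.0462). Of all 45 called genes with a symbol, 34 lost the call without at least 1 of the 6 arrays, among them BAN (up to 0.0736), GTR1 (up to 0.13), CCS (0.0935), AKINBETA1 (up to 0.119) and COR15A (up to 0.289), all as limma adjusted p.

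The share of single-gene probe sets called was similar on the nuclear chromosomes: 3.81% of those tested on chromosome 1, 3.22% on 2, 3.76% on 3, 3.83% on 4 and 3.17% on 5. In the plastid genome 1 of 66 was called, petG, which encodes a subunit of the cytochrome b6f complex (limma, adjusted p = 0.0466). It lost the call without any 1 of the 6 arrays (limma, adjusted p from 0.0539 to 0.314).

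The next comparison asked where arf6/arf6 ARF8/arf8 differed from arf6 arf8, in which no wild-type copy of either gene is labelled. Between these mutants 187 of 12701 probe sets differed (1.47%, limma), 134 higher in arf6/arf6 ARF8/arf8 (1.06%) and 53 lower (0.417%). For comparison, 2317 (18.2%) differed between arf6 arf8 and Columbia by the same rule, 1248 higher (9.83%) and 1069 lower (8.42%), against 422 for arf6/arf6 ARF8/arf8; these contrasts share arrays, so their values are set side by side only. The count between the mutants was 61 without the untreated array and 31 without the IAA array of arf6 arf8, and 474 and 464 without the untreated and the IAA array of Columbia. With no filter on dim probe sets limma called 0, with 2360 at an unadjusted p under 0.05, and with an intensity trend 349.

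After AT1G72290, the largest positive differences among single-gene probe sets were at loci that were dim in arf6 arf8 and bright in both other genotypes. AT1G30795 read 665.1 and 926.7 in arf6/arf6 ARF8/arf8, 17.9 and 16.6 in arf6 arf8, and 607.0 and 706.8 in Columbia. AT3G12000 read 879.9 and 747.7 in arf6/arf6 ARF8/arf8, 40 and 76.7 in arf6 arf8, and 777.4 and 1045.0 in Columbia. AT1G05450 read 448.4 and 644.6 in arf6/arf6 ARF8/arf8, 31.8 and 67.2 in arf6 arf8, and 502.2 and 624.0 in Columbia. AT3G26140 read 675.5 and 557.6 in arf6/arf6 ARF8/arf8, 65.8 and 87.2 in arf6 arf8, and 421.5 and 536.2 in Columbia. Both arf6 arf8 arrays of AT1G30795 lay below the floor, so its log2 difference between the mutants was at least 3.6, and those of AT3G12000, AT1G05450 and AT3G26140 were 3.52, 3.03 and 3.02. When the floor was raised to the 40th percentile these 3 differences were 2.37, 1.77 and 1.97 and still passed. For the 4 loci in the order given, the log2 difference of arf6/arf6 ARF8/arf8 from Columbia was 0.26, −0.15, −0.06 and 0.37 and did not pass (limma, adjusted p from 0.324 to 0.873).

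**Figure D4:**
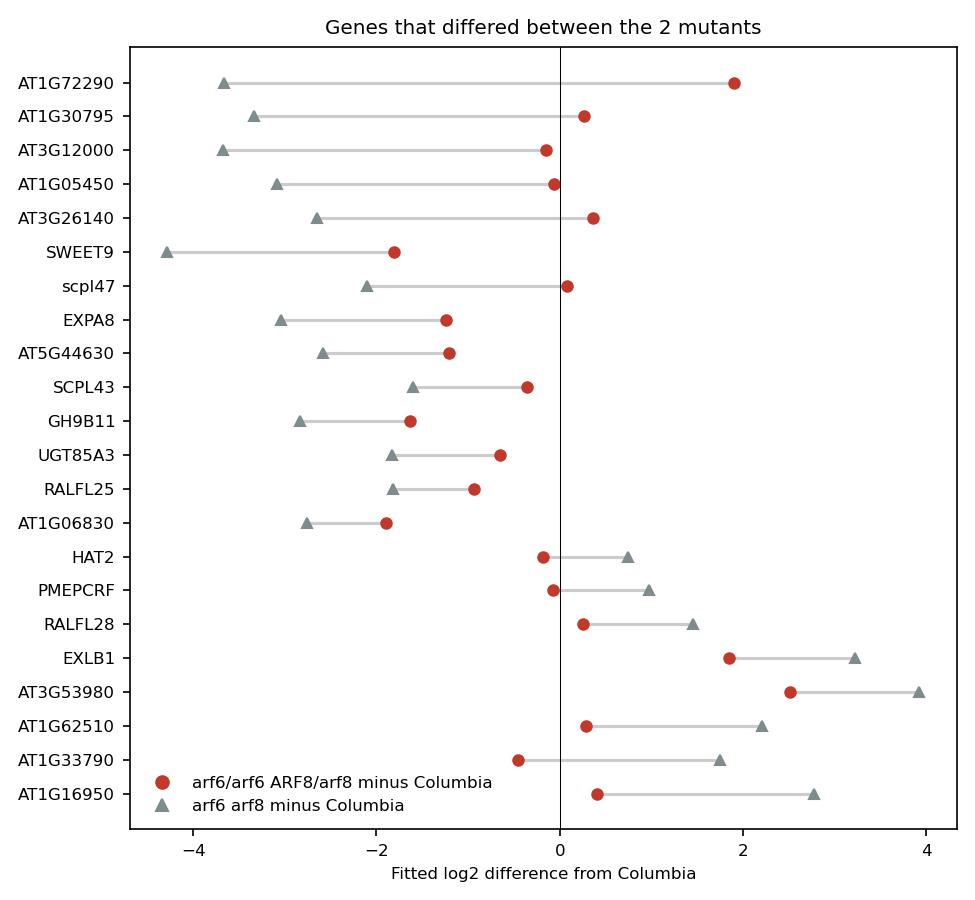
Fitted log2 difference from Columbia in arf6/arf6 ARF8/arf8 and in arf6 arf8 for 22 named or listed genes that differed between the mutants. AT1G72290 lies above Columbia in arf6/arf6 ARF8/arf8 and below it in arf6 arf8, and SWEET9 and EXPA8 lie farther below 0 in arf6 arf8. All points use the same Columbia arrays, and the arf6 arf8 points of AT1G72290, AT1G30795 and GH9B11 are set by the floor.

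In the other direction, AT1G16950 read 250.5 and 235.4 in arf6/arf6 ARF8/arf8, 1086.2 and 1446.5 in arf6 arf8, and 191.2 and 176.4 in Columbia. AT1G33790 read 50.2 and 66.1 in arf6/arf6 ARF8/arf8, 304.9 and 297.7 in arf6 arf8, and 87.2 and 92.7 in Columbia. Their log2 differences between the mutants were −2.37 and −2.20, and that of AT1G62510 was −1.92. AT3G53980 and EXLB1, which rose in arf6/arf6 ARF8/arf8, read higher still in arf6 arf8, at 2498.2 and 2285.3 for AT3G53980 and at 700.8 and 742.5 for EXLB1, and differed by −1.41 and −1.38 between the mutants. AT1G62510 lost its call between the mutants without the IAA array of arf6 arf8 (limma, adjusted p = 0.0814), AT3G53980 without either arf6 arf8 array (0.0782 and 0.116), and EXLB1 without either of these or the untreated array of arf6/arf6 ARF8/arf8 (0.0573 to 0.236).

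Several genes described above lay between Columbia and arf6 arf8. SWEET9 had fitted log2 differences from Columbia of −1.81 in arf6/arf6 ARF8/arf8 and −4.28 in arf6 arf8, and the mutants differed by 2.47 ± 0.15 (SE, limma, adjusted p = 0.000561). EXPA8 read 289.1 and 163.9 in arf6 arf8, below both arrays of arf6/arf6 ARF8/arf8, and the mutants differed by 1.81. GH9B11, below the floor on both arf6 arf8 arrays, differed by at least 1.20, AT5G44630 by 1.38 and RALFL25 by 0.88, each higher in arf6/arf6 ARF8/arf8 than in arf6 arf8 and past the threshold. For LCR72 the mutants differed by 0.24 (limma, adjusted p = 0.569).

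The last comparison asked whether the difference between IAA-sprayed and untreated flowers in arf6/arf6 ARF8/arf8 departed from the one common to arf6 arf8 and Columbia. No probe set passed in limma (0.0% of 12701), with 320 at an unadjusted p under 0.05 (2.52%) and a smallest adjusted p of 0.614. The model had 1 residual degree of freedom. Among single-gene probe sets the largest fitted departures, none past the threshold, were THI2.2, AT2G38840 and AT3G10310 on the lower side (log2 −1.92, −1.69 and −1.40) and AT1G73040, AT1G64360 and AT1G19370 on the higher side (1.94, 1.62 and 1.53). AT1G73040 read 58.0 untreated and 178.7 with IAA in arf6/arf6 ARF8/arf8, 309.3 and 283.8 in arf6 arf8, and 114.9 and 47.5 in Columbia. When the floor was lowered to the 10th percentile, THI2.2 was the 1 probe set called (log2 −3.96, limma, adjusted p = 0.00166), and that value compares single arrays. THI2.2 lay below the main floor on the IAA array of arf6/arf6 ARF8/arf8 and on both fitted Columbia arrays. In arf6 arf8 it read 443.7 untreated and 395.5 with IAA.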

How the data were processed

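RNA from flowers was hybridised to single-colour Affymetrix arrays. The deposited table holds intensity on a linear scale, and the submitters' processing notes name MAS5. Each array had a 2% trimmed mean of 500.03 or 500.04 in the deposited intensities, so the authors' scaling was kept. No source used here gives the scaling factors or detection calls. Of 22810 probe sets, 64 Affymetrix controls were left out, and of the other 22746, 13513 carry 1 gene in GEO's platform annotation, 503 several and 8730 none. Gene names, chromosomes and neighbours come from RefSeq's table for TAIR10.1, in which 13508 of these were found.

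Values under 64.9, the 25th percentile of the table with its mock array, were raised to it before log2 was taken. A probe set entered the test if at least one of the 6 fitted arrays exceeded 248.1, the 50th percentile. A probe set that exceeded it in a single genotype could differ from that genotype only by being lower. Genotype and treatment were fitted as additive terms over the 6 untreated and IAA arrays by lmFit and eBayes of limma 3.58.1 under R 4.3.3 (2 residual degrees of freedom, prior worth 5.085), with Benjamini-Hochberg adjustment over all 12701 and a threshold of 0.05. A further term tested the response to IAA in arf6/arf6 ARF8/arf8. A fold against a side whose arrays were all at or below the floor is written "at least". Precision is limited by how few arrays there are.

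The arrays, gene lists and tests were chosen with earlier results of these data known. Named genes are the 12 largest rises and 12 largest falls of called probe sets that carry 1 gene and moved the same way in both pairs, the 5 largest each way between the mutants, and, where none passed, the 3 largest each way. Of the lists, members past the threshold are named, otherwise up to 4 with the largest difference. Lists of pectate lyases and polygalacturonases, lipid transfer proteins, arabinogalactan proteins, peroxidases and MYB factors matched 0 named probe sets, and the floral identity, meristem and seed lists had 0 testable genes. Apart from the terpene synthase loci, planned lists were matched by symbol and synonym only. An empty list thus does not show that such genes are absent: the peroxidase gene AT5G64120 was missed in this way. Families and other genes with a symbol were added after the values were seen. Alternatives changed the floor, the filter, the normalization, the variance prior, the arrays in the fit and the treatment term. Sequences are not shown.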

Additional observations from a re-analysis of the deposited data

Results flagged for a closer look

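Of 170 named or listed genes, 22 met a limma test in which the difference from Columbia was not the same in arf6/arf6 ARF8/arf8 and in arf6 arf8, beside 187 of 12701 (1.47%) over all probe sets tested. Of the 22, 10 are named because they were the largest of their direction in this same contrast, so the count is a description. The log2 difference of arf6/arf6 ARF8/arf8 minus arf6 arf8 was positive for 14: AT1G72290 (at least 5.56), AT1G30795 (at least 3.6), AT3G12000 (3.52), AT1G05450 (3.03), AT3G26140 (3.02), SWEET9 (2.47), the carboxypeptidase-like genes scpl47 (2.19) and SCPL43 (1.24), EXPA8 (1.81), the terpene synthase locus AT5G44630 (1.38), GH9B11 (at least 1.20), UGT85A3 (1.17), RALFL25 (0.88) and AT1G06830 (0.86). It was negative for 8: AT1G16950 (−2.37), AT1G33790 (−2.20), AT1G62510 (−1.92), AT3G53980 (−1.41), EXLB1 (−1.38), RALFL28 (−1.19), PMEPCRF (−1.05) and HAT2 (−0.93).

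For scpl47, a member of the serine carboxypeptidase-like family, intensities were 557.5 and 441.1 in arf6/arf6 ARF8/arf8, 91.4 and 130.0 in arf6 arf8, and 454.2 and 486.3 in Columbia. HAT2 read 819.0 and 1763.6 in arf6/arf6 ARF8/arf8, 1321.3 and 3942.4 in arf6 arf8, and 881.7 and 2111.9 in Columbia. RALFL28, a signalling peptide gene, read 225.5 and 260.5 in arf6/arf6 ARF8/arf8, 542.2 and 566.3 in arf6 arf8, and 235.8 and 174.6 in Columbia. For these genes the arf6 arf8 arrays stood apart from both other genotypes within each treatment.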

How the results depend on the processing

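The labels give no replicate numbers to block on, so the arrays were paired by treatment alone. Each group is 1 array, and a p-value rests on additive effects and on the spread shared by the arrays. For arf6/arf6 ARF8/arf8 against Columbia, the 422 calls became 1 in limma with no filter on dim probe sets (3112 at an unadjusted p under 0.05). That 1 probe set was not among the 422. The count was 839 with an intensity trend, 94 with no treatment term and 129 with at least 2-fold in both pairs and no model. Leaving out 1 array gave 156 to 454. Floors, a stricter filter, other normalizations and fits on 4 or 7 arrays gave 316 to 587. Of the 66 genes followed, all lost the call with no filter and 39 with no treatment term, and none changed sign in any setting run. For arf6/arf6 ARF8/arf8 against arf6 arf8, the 187 calls became 0 in limma with no filter (2360 at an unadjusted p under 0.05), 349 with an intensity trend and 31 to 474 with 1 array left out. For the response to IAA, 0 calls became 1 with a floor at the 10th percentile. Dim genes moved with the floor: raised to the 40th percentile, it left log2 differences from Columbia of −1.61 for AT5G64120, −1.31 for AT3G54240, −0.98 for AT5G47350, −1.20 for AT1G47400, −1.08 for AT3G50900, −0.91 for AT1G70270 and 0.82 for EXLB1, and between the mutants −0.94 for AT1G33790, all still called. The cause of the changes in count was not tested. Where one arm was left with 1 array, that array was assumed to vary like the others. Intensity limits the low end: 24.8% and 24.7% of probe sets lay at or below the floor on the arf6/arf6 ARF8/arf8 arrays, against 26.6% and 26.7% in Columbia.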

Other observations

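Some probe sets with no gene listed changed beside the one described above. 250500_at read 483.4 and 742.1 in arf6/arf6 ARF8/arf8, 4.1 and 36.2 in arf6 arf8, and 229.5 and 148.3 in Columbia, and was 3.25-fold higher in arf6/arf6 ARF8/arf8 than in Columbia (limma, adjusted p = 0.0227). 266353_at read 366.4 and 260.7 in arf6/arf6 ARF8/arf8, 196.9 and 206.1 in arf6 arf8, and 55.9 and 81.3 in Columbia, and was 4.25-fold higher (limma, adjusted p = 0.00701). 249760_at read 97.7 and 54.6 in arf6/arf6 ARF8/arf8, 19.4 and 7.1 in arf6 arf8, and 387.9 and 314.5 in Columbia, and was 4.39-fold lower (limma, adjusted p = 0.00608).

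Called single-gene probe sets included neighbouring genes with 0 coding genes between them. AT1G23580, AT1G23590 and AT1G23600 lay in a row on chromosome 1 and rose by 1.16, 0.78 and 0.93 on the log2 scale. AT1G29660 and AT1G29670 fell by 1.5 and 1.01, and AT1G06250 and AT1G06260 rose by 0.96 and 1.14. SWEET10 and SWEET13 were the neighbours that changed in opposite directions.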
